A study of Caenorhabditis elegans with 10 samples.

Results

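The bus genes of Caenorhabditis elegans are named for mutants that are bacterially unswollen, animals in which the pathogen Microbacterium nematophilum no longer sticks to the surface and swells the tail. The 8 genes described here were chosen by symbol, with earlier results of these data known. The array names 7 of them under exactly that symbol and bus-8 only as bus-8B, and they are 8 of the 17118 genes that its probe sets name singly. Where a gene had more than 1 probe set, the one described was selected on its mean signal over all 10 arrays, the highest being taken. This applied only to bus-8, which has 2 probe sets. The chosen one had the higher mean only in the wdr-23 control arrays (350 against 224). It had the lower mean in N2 (127 against 137) and with skn-1 RNAi (109 against 118). The choice was therefore not independent of the group differences described below, and both probe sets are given.

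Most bus genes are thought to act in building the glycan-rich coat over the cuticle. Sugars are activated as nucleotide sugars, carried into the Golgi by transporters, and added to proteins and lipids by glycosyltransferases, and the secreted products end up at the animal's surface. Mutants in several of these genes have a fragile or leaky cuticle, resist bacterial adhesion, and are used in the laboratory because drugs enter them more easily. The genes act mainly in the epidermis and its seam cells, and bus-1 acts in the rectal epithelium.

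RNA came from whole worms grown from synchronised L1 larvae until most had reached the L4 stage, 200 to 500 animals per sample, and 250 ng of total RNA was labelled for an Affymetrix array. N2, the laboratory wild type, fed bacteria carrying a control RNAi plasmid gave 3 arrays, wdr-23 mutants on control RNAi gave 4, and wdr-23 mutants on skn-1 RNAi gave 3. All groups fed on HT115 bacteria, on plates holding lactose (0.2%) and carbenicillin (50 ug/ml), and every animal of both mutant groups carried the same wdr-23 allele, which is written tm1718 in the sample labels and tm1817 in the study's design text. WDR-23 is a substrate adaptor that keeps the Nrf-like transcription factor SKN-1 low. No N2 animals on skn-1 RNAi were measured, so an effect of skn-1 RNAi outside the mutant could not be tested.

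The values are linear MAS5 signals that the submitters had scaled to a common level. Array medians were 113 to 119.2 in N2, 134.8 to 139.7 in the wdr-23 control arrays and 118 to 125.3 with skn-1 RNAi, so the median moved with the group, and its part in the results was not tested other than by rescaling. The skn-1 transcript on its brightest probe set was at 474 ± 70.1 (SD, n = 4) on control RNAi and at 257 ± 28 (SD, n = 3) on skn-1 RNAi in the mutant, a log2 change of -0.83 (limma adjusted p = 0.000708). The wdr-23 transcript itself, on its only probe set, was higher in the arrays labelled wdr-23 control RNAi, at 3259 ± 453 (SD, n = 4), than in N2, at 865 ± 151.5 (SD, n = 3), a log2 change of 1.89 (limma adjusted p = 1.14e-08), and was at 902 ± 18.6 (SD, n = 3) with skn-1 RNAi. Where that probe set lies relative to the mutation is not given in the sources used here, so it does not check the genotype labels. Markers of all the tissues searched (epidermis, hindgut, intestine, body-wall muscle, neurons and germ line) gave signal on all arrays, although egl-5 and mab-9 of the hindgut and rgef-1 of the neurons stayed below 19 throughout. In whole animals, fewer cells of a type and less RNA per cell cannot be told apart.

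Log2 changes were fitted after adding a pseudocount of 19 to each signal, so the fold of a dim gene is smaller than the ratio of its signals. Of the 8 genes, 6 were bright enough to test. The nearest inside the limit on brightness (a mean log2 value of 5.71) was bus-17 at 6.49, and the nearest outside were bus-1 at 5.51 and bus-2 at 5.41. A gene was called at an adjusted p under 0.05, over all 15783 probe sets tested.

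The wdr-23 mutant was compared with N2 on control RNAi in both. Among the 6 tested bus genes 5 rose, 0 fell and bus-4 did not pass the test. Over all probe sets tested 17.4% were called higher, and 27.5% were called in either direction. The median log2 change of the 6 was 0.65, beside 0.01 for all probe sets tested. All 4 mutant arrays exceeded all 3 N2 arrays for 4 of the 6 tested genes, where 20.3% of all probe sets did so in that direction. The rises were modest, from 1.42-fold for bus-19 to 2.73-fold for bus-8 on its chosen probe set. The other probe set of bus-8 gave 1.52-fold.

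With skn-1 RNAi in the mutant, 4 of the 6 tested genes fell and 0 rose, and bus-4 and bus-17 did not pass the test. Over all probe sets 12.6% were called lower in this comparison. Every skn-1 RNAi array lay under every wdr-23 control array for the same 4 genes, where 17.5% of all probe sets did so in that direction. The median log2 change of the 6 was -0.67, beside -0.01 for all probe sets. Both comparisons share the 4 wdr-23 control arrays, so a high value on those arrays enters both.

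**Figure D1:**
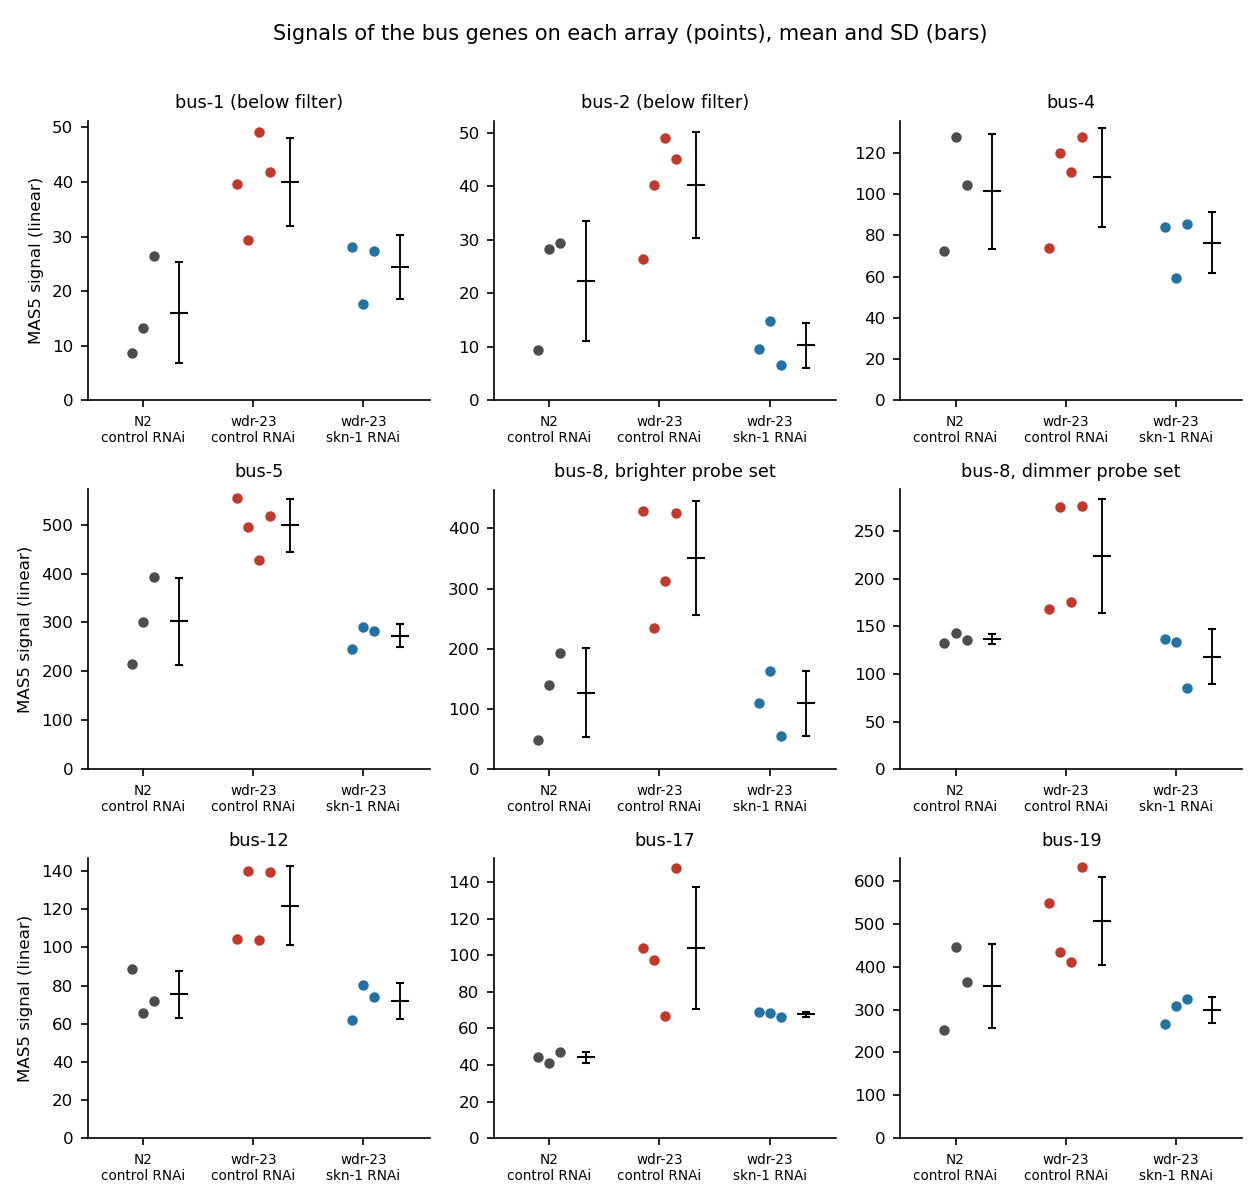
MAS5 signal (linear, vertical axis from 0) of each bus gene on each of the 10 arrays, by group, with both probe sets of bus-8; points are arrays and bars the mean and SD. The wdr-23 control arrays are the highest group mean in all panels, with no overlap with the other 6 arrays for bus-1, bus-5, bus-12 and both probe sets of bus-8, while bus-4 overlaps in all groups.

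The enzymes that make and move activated sugars are represented by bus-5 and bus-12. The protein of bus-5 resembles dTDP-glucose 4,6-dehydratases, which convert one nucleotide sugar into another. Its signal was 215, 300.3 and 392.3 on the N2 arrays, 555, 495, 427 and 517 on the wdr-23 control arrays, and 246, 291 and 283 on the skn-1 RNAi arrays. All 4 wdr-23 control arrays lay above the other 6, with the lowest of them not far above the highest N2 array. The log2 change was 0.72 between mutant and N2 (SE 0.17, limma adjusted p = 0.00438). With skn-1 RNAi bus-5 fell by 0.82 on the log2 scale (SE 0.17, adjusted p = 0.00221), from 498 ± 53.5 (SD, n = 4) to 273 ± 23.7 (SD, n = 3). It was called in both comparisons under all 20 alternatives run.

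The nucleotide sugar transporter gene bus-12 had signals of 88.9, 65.4 and 71.9 in N2, of 104, 139.9, 104 and 139.7 in the wdr-23 control arrays, and of 62, 80.3 and 73.8 with skn-1 RNAi. The mutant control arrays again lay above the other 6, and N2 and skn-1 RNAi arrays were interleaved. The log2 changes were 0.57 (SE 0.17, limma adjusted p = 0.0174) against N2 and -0.62 (SE 0.17, adjusted p = 0.0138) with skn-1 RNAi. The rise was not called after quantile normalization (0.37, adjusted p = 0.116) or median centring (0.37, adjusted p = 0.0849). Neither was it without N2 replicate 2 (0.50, adjusted p = 0.0691) or N2 replicate 3 (0.55, adjusted p = 0.0504), and the fall was not called after quantile normalization (-0.47, adjusted p = 0.0556) or without wdr-23 skn-1 RNAi replicate 1 (-0.54, adjusted p = 0.0708).

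The predicted glycosyltransferases behaved unequally in size. The gene bus-8 encodes a mannosyltransferase-like protein of the epidermis that is needed for the cuticle barrier and for embryonic morphogenesis. On its brighter probe set the signal was 48.4, 139.4 and 193.7 in N2, then 429, 234, 312 and 425 in the wdr-23 control arrays, and 109.8, 163.5 and 54.9 with skn-1 RNAi. The groups did not overlap on either side of the mutant control arrays, but the spread within N2 was wide, 127 ± 73.5 (SD, n = 3), with replicate 1 far under the others. The log2 changes were 1.45 (SE 0.34, limma adjusted p = 0.00482) against N2 and -1.58 (SE 0.34, adjusted p = 0.0035) with skn-1 RNAi. They were the largest of the 6 genes in both comparisons under the reported setting, a rank that the choice of probe set favoured.

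The dimmer probe set of bus-8 gave signals of 133, 143 and 136 in N2, of 169, 275, 176 and 276 in the wdr-23 control arrays, and of 136, 133 and 85.4 with skn-1 RNAi. The N2 arrays were close together there and the 4 mutant control arrays still exceeded the other 6. The log2 changes were 0.60 (limma adjusted p = 0.0275) and -0.81 (adjusted p = 0.00647), about the size seen for bus-5, so the direction was shared by both probe sets and the size was not. Without N2 replicate 1 the change of the brighter probe set against N2 was 0.97 (adjusted p = 0.0347).

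The other predicted glycosyltransferase that rose was bus-17. Its signals were 44.4, 41.3 and 47.1 in N2, 103.7, 97.5, 66.7 and 147 in the wdr-23 control arrays and 69, 68.2 and 66.4 with skn-1 RNAi. The mutant control arrays varied most, replicate 3 lying within the range of the skn-1 RNAi arrays and replicate 4 the highest. The log2 change against N2 was 0.92 (SE 0.19, limma adjusted p = 0.00238), and it was called under all 19 alternatives that could test it. With skn-1 RNAi the change was -0.46 (SE 0.19, 95% interval -0.87 to -0.05, adjusted p = 0.0993) and was not called, but it was without wdr-23 control RNAi replicate 3 (-0.62, adjusted p = 0.0255). The skn-1 RNAi arrays of bus-17 all lay above the N2 arrays, at a log2 difference of 0.46 (95% interval 0.02 to 0.90, unadjusted p = 0.0419 and limma adjusted p = 0.237).

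The glycosyltransferase-family genes bus-4 and bus-2 gave less. The signal of bus-4 was 72.3, 127.6 and 104.3 in N2, 73.7, 120, 111 and 127.8 in the wdr-23 control arrays and 84.2, 59.5 and 85.8 with skn-1 RNAi, and all groups overlapped. Its log2 change against N2 was 0.08 (95% interval -0.34 to 0.51, limma adjusted p = 0.783), turning to -0.12 after both quantile normalization and median centring. With skn-1 RNAi it was at -0.40 (95% interval -0.83 to 0.02, adjusted p = 0.161). The interval against N2 leaves room for a change as large as that of bus-19 and does not reach that of bus-5.

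The bus-2 probe set was too dim for the main test, with signals of 9.44, 28.2 and 29.3 in N2, 26.5, 40.3, 49 and 45.2 in the wdr-23 control arrays, and 9.60, 14.8 and 6.51 with skn-1 RNAi. The skn-1 RNAi arrays were all under the pseudocount and all under the mutant control arrays, while N2 overlapped both groups. When no probe set was left out for low signal, bus-2 was called lower with skn-1 RNAi (limma adjusted p = 0.00994), and it was not called against N2 (adjusted p = 0.116). No size is given for this change, because the lower signals lie under the pseudocount and the fitted value depends on it.

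Among the members that are not glycosyltransferases or sugar suppliers, bus-1 encodes a predicted membrane acyltransferase expressed in rectal cells. It was also below the limit on brightness, with signals of 8.58, 13.2 and 26.4 in N2, 39.7, 29.4, 49.1 and 41.7 in the wdr-23 control arrays, and 28.2, 17.6 and 27.4 with skn-1 RNAi. All 4 mutant control arrays exceeded the other 6. Without the limit, bus-1 was called higher against N2 (limma adjusted p = 0.0208), and it was not called with skn-1 RNAi (adjusted p = 0.184). No size is given here either, since 2 of the 3 N2 signals lie under the pseudocount.

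The signals of bus-19 were 252, 447 and 365 in N2, 548, 434, 411 and 633 in the wdr-23 control arrays, and 265.5, 308 and 325 with skn-1 RNAi. The second N2 array lay within the range of the mutant control arrays, while the skn-1 RNAi arrays were all under them. Its log2 change with skn-1 RNAi was -0.71 (SE 0.18, limma adjusted p = 0.0109), and without wdr-23 skn-1 RNAi replicate 1 it was -0.63 (adjusted p = 0.0566). The rise against N2 was at the edge of the threshold, 0.51 (SE 0.18, adjusted p = 0.047), and 15 of 20 alternatives left it uncalled, including the fit without N2 replicate 1 (0.29, adjusted p = 0.27).

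**Figure D2:**
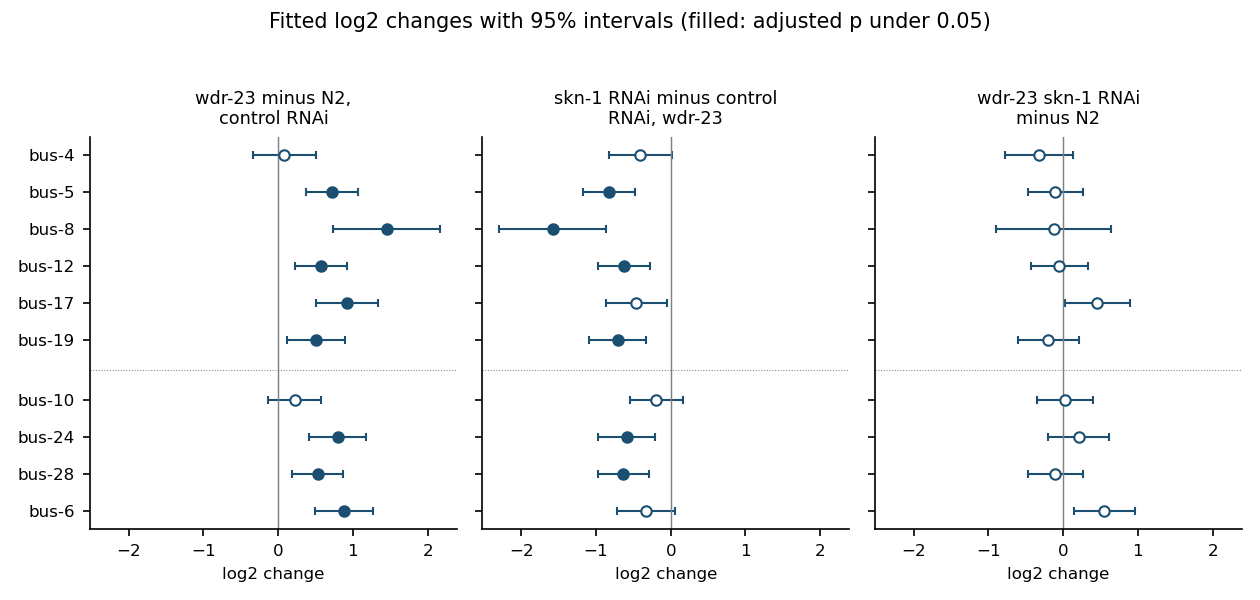
Fitted log2 change (horizontal axis) with its 95% interval for the 6 tested bus genes (above the dotted line) and the 4 other tested genes named bus- (below it), in the 3 comparisons; filled points have an adjusted p under 0.05. Filled points lie right of 0 for 5 of the 6 upper genes in the first panel and left of 0 for 4 in the second, and none is filled in the third.

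The mutant with skn-1 RNAi was also set against N2. In this comparison limma called 0 of the 6 tested genes, where 6.34% of all probe sets were called, and 1 gene, bus-17, had an unadjusted p under 0.05. The 95% intervals of the log2 differences ran from -0.48 to 0.27 for bus-5, from -0.90 to 0.64 for bus-8, from -0.43 to 0.33 for bus-12, from -0.61 to 0.21 for bus-19 and from -0.77 to 0.13 for bus-4. For bus-17 the interval ran from 0.02 to 0.90. For each of the 5 genes that rose between mutant and N2, the upper end of this interval lay under its own fitted rise, narrowly so for bus-17 (0.898 against 0.919). That is a description and not a further test. The rise has its own error and rests on the same N2 arrays. The direct comparison of skn-1 RNAi with control RNAi did not call bus-17. A difference smaller than these intervals could not be seen with 3 arrays against 3.

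The arrays were also rescaled. Median centring moved the log2 changes against N2 by a median of -0.20 and those with skn-1 RNAi by 0.15, and quantile normalization moved the first by -0.12. After either rescaling, the rises of bus-5, bus-8 and bus-17 were called and those of bus-12 and bus-19 were not, giving 3 of 6. Of all 15783 probe sets tested, 1942 were called higher against N2 after quantile normalization and 1671 with median centring. The reported setting called 2754 higher. With median centring the log2 rises were 0.52 for bus-5, 1.25 for bus-8 and 0.72 for bus-17. The fall with skn-1 RNAi was called for bus-5 and bus-8 under every alternative.

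**Figure D3:**
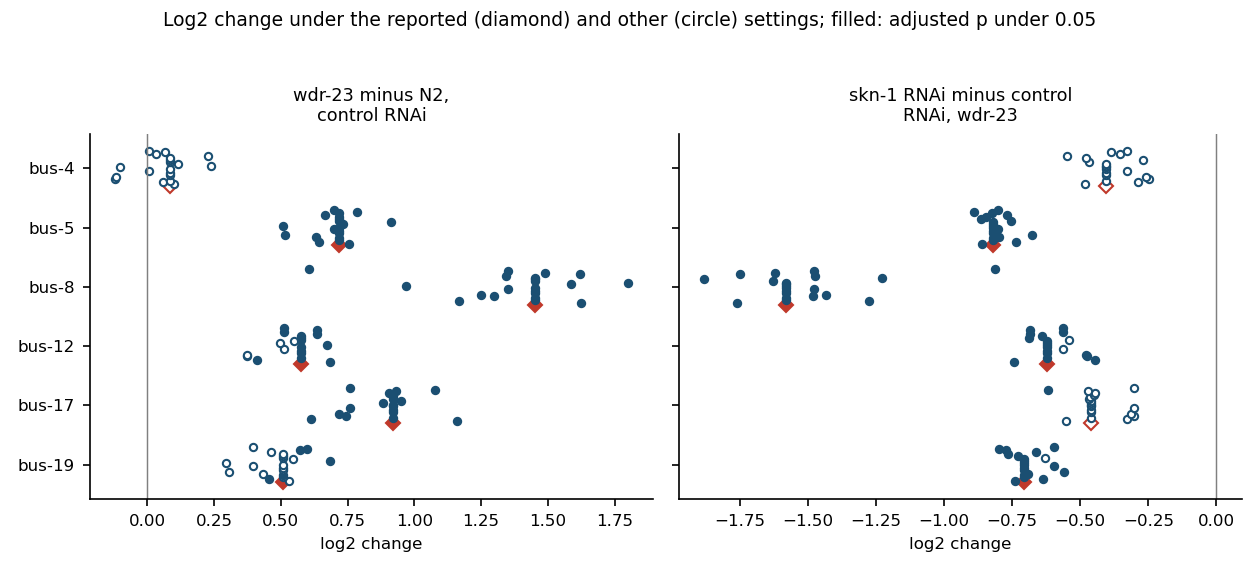
Log2 change (horizontal axis) of each tested bus gene under the reported setting (diamond) and each alternative that could test it (circles), for mutant against N2 and for skn-1 RNAi against control RNAi; filled symbols have an adjusted p under 0.05. Circles are filled throughout for bus-5 and bus-8 in both panels and for bus-17 in the first, and mostly open for bus-19 in the first.

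The arrays within a group did not vary alike across the genes. Replicate 1 of N2 was the lowest N2 array for 6 of the 8 genes and the highest for bus-12. In the wdr-23 control group replicate 4 was the lowest for 0 of the 8 genes and the highest for 3, and in the skn-1 RNAi group each array was the lowest for 2 or 3. Over the 10 arrays Pearson's r between pairs of tested members ran from 0.17 (bus-4 with bus-17) to 0.91 (bus-5 with bus-8). The 5 pairs with bus-4 were at 0.17 to 0.58 and the other 10 at 0.62 or above. These values share the group differences described above and are given as a description.

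The genes whose log2 values followed each member most closely over the 10 arrays, among 12055 other genes, were named by the same measure. Each was picked as the highest of 12055 values over only 10 arrays, and a high r can arise from that picking alone. No r was tested. For bus-8 they were mlt-8, a moulting gene (r = 0.97), and the transporter-family gene snf-1 (0.97). For bus-5 they were the neuropeptide gene nlp-14 (0.98) and srlf-19 (0.97), for bus-17 the lectin gene clec-180 (0.96) and the transcription factor gene hbl-1 (0.96), and for bus-12 the antimicrobial peptide gene abf-5 (0.97) and chat-1 (0.95). For bus-19 they were W08G11.1 (0.96) and the small GTPase gene rab-6.2 (0.95), and for bus-4, which the groups did not separate, F59E11.7 (0.94) and the neurexin gene nrx-1 (0.92).

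The array holds 6 further genes named bus-, of which 4 were tested. Against N2, bus-6 (log2 change 0.88, limma adjusted p = 0.00204), bus-24 (0.80, adjusted p = 0.00385) and bus-28 (0.53, adjusted p = 0.0224) rose and bus-10 was at 0.22 (adjusted p = 0.343). With skn-1 RNAi bus-24 (-0.59, adjusted p = 0.0272) and bus-28 (-0.64, adjusted p = 0.0103) fell, while bus-6 was at -0.33 (adjusted p = 0.207) and bus-10 at -0.19 (adjusted p = 0.433). The signal of bus-6 was 87.9, 125 and 136 in N2, 187, 210.3, 208 and 322 in the wdr-23 control arrays, and 153, 189 and 190.5 with skn-1 RNAi, so that, as for bus-17, the skn-1 RNAi arrays lay above N2. Of the dim genes, bus-22 was at 11.2 ± 10.2 (SD, n = 3), 42.6 ± 5.86 (SD, n = 4) and 21.2 ± 6 (SD, n = 3) in N2, mutant control and skn-1 RNAi arrays, and bus-18, an acyltransferase gene, was at 13.1 ± 12.8, 16.3 ± 3.29 and 15.1 ± 2.79.

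Further surface genes were taken from a list of Bus, surface antigen and biofilm mutants, which also holds 4 of these other bus genes. Of its 7 tested members 3 rose and 0 fell against N2, with a median log2 change of 0.34, where 17.4% of all probe sets were called higher. With skn-1 RNAi 2 of the 7 fell and 0 rose, where 12.6% of all were called lower. The largest rises were in bah-1, which is needed for bacterial biofilms to attach to the head, and srf-5, known from mutants with altered surface antigens. The bah-1 signal was 25.1, 22.7 and 8.43 in N2, 198, 202, 161 and 208 in the wdr-23 control arrays, and 61.3, 81.6 and 70.8 with skn-1 RNAi, so the groups were fully separate. Its log2 changes were 2.51 (SE 0.19, limma adjusted p = 2.47e-08) against N2, -1.23 (SE 0.19, adjusted p = 0.000185) with skn-1 RNAi and 1.28 (SE 0.20, adjusted p = 0.000645) between skn-1 RNAi mutants and N2. The corresponding log2 changes of srf-5 were 2.43, -1.53 and 0.91, with adjusted p values of 3.34e-07, 0.000113 and 0.0286. The srf-5 signal was 22.9, 5.12 and 20.4 in N2. Its mutant control arrays gave 137 to 184 and its skn-1 RNAi arrays 34.7 to 66.7. The mean N2 signals of bah-1 (18.8) and srf-5 (16.1) lie under the pseudocount of 19. The fitted sizes of both genes against N2 therefore depend on the pseudocount. The nucleotide sugar transporter gene srf-3, whose mutants resist the same pathogen, was at -0.23 (adjusted p = 0.508) and 0.08 (adjusted p = 0.85), and agmo-1, an ether lipid enzyme gene, at 0.34 (adjusted p = 0.166) and -0.45 (adjusted p = 0.0799).

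In the list of nucleotide sugar supply and transport, 4 of 22 tested genes rose and 3 fell against N2, with a median log2 change of 0.00, where 17.4% and 10.1% of all probe sets did. With skn-1 RNAi 4 rose and 2 fell, with a median of 0.02, where 9.99% and 12.6% of all probe sets did. The rises against N2 were led by rml-3, of the dTDP-rhamnose pathway, with signals of 407, 443 and 619 in N2, 1626, 2132, 1675 and 2200 in the wdr-23 control arrays and 733, 1098 and 1188 with skn-1 RNAi. Its log2 changes were 1.93 (SE 0.18, limma adjusted p = 4.02e-07), -0.93 (SE 0.18, adjusted p = 0.00145) and 1.00 (SE 0.19, adjusted p = 0.00356) in the 3 comparisons, so it stayed above N2 with skn-1 RNAi. The transporter gene nstp-3 rose by 1.31 (adjusted p = 1.15e-05) and changed by -0.88 with skn-1 RNAi (adjusted p = 0.000908). The hexosamine pathway genes gfat-2 (-0.61, adjusted p = 0.000566) and gna-2 (-0.42, adjusted p = 0.00686), which feed UDP-GlcNAc synthesis, fell against N2 and rose with skn-1 RNAi (0.60, adjusted p = 0.000882, and 0.40, adjusted p = 0.0108), opposite to bus-5 and bus-12.

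Of 33 other tested glycosyltransferases 3 rose and 2 fell against N2 (median log2 change -0.05), and 1 rose and 2 fell with skn-1 RNAi (median -0.02). Over all probe sets 17.4% were called higher and 10.1% lower against N2. With skn-1 RNAi 9.99% were called higher, 12.6% lower and 22.5% in either direction. The rises against N2 included the N-glycan enzyme gene gly-14 (0.87, limma adjusted p = 0.00392) and glct-6 (0.82, adjusted p = 0.000449), and the falls were sqv-3 (-0.38, adjusted p = 0.0485), which builds the linker of proteoglycan chains, and gly-5 (-0.38, adjusted p = 0.0309), which starts mucin-type O-glycans. With skn-1 RNAi the protein O-fucosyltransferase gene pfut-1 (-0.56, adjusted p = 0.019) and fut-1 (-0.48, adjusted p = 0.0176) fell and gly-10 rose (0.40, adjusted p = 0.0371). Whether the bus genes differ from these families was not tested.

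**Figure D4:**
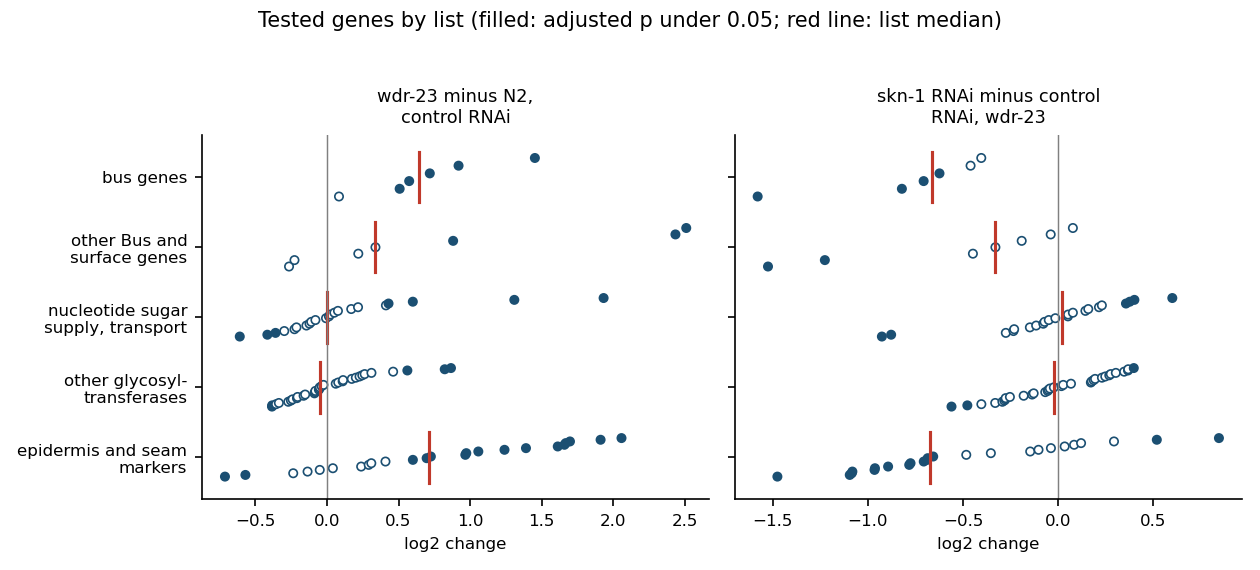
Log2 change (horizontal axis) of every tested gene in the bus genes, in 3 lists of related genes and in the epidermis and seam markers, for mutant against N2 and for skn-1 RNAi against control RNAi; filled points have an adjusted p under 0.05 and red lines are medians. The medians of the bus genes (0.65 and -0.67) lie near those of the epidermis markers (0.71 and -0.67), and those of the sugar supply and glycosyltransferase lists near 0. Medians of marker lists not drawn were 0.51 and -0.34 for neurons and 0.37 and -0.62 for hindgut. They were 0.02 and -0.24 for intestine, 0.13 and -0.26 for muscle, and -0.165 and 0.32 for germ line.

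Markers of the epidermis and seam, where most bus genes act, were also measured. Of 24 tested markers 14 rose and 2 fell against N2, with a median log2 change of 0.71, where 17.4% of all probe sets were called higher and 10.1% lower. With skn-1 RNAi 13 fell and 2 rose, with a median of -0.67, where 12.6% of all probe sets were called lower and 9.99% higher. The moulting and seam genes wrt-2 (2.06, limma adjusted p = 1.59e-08) and wrt-10 (1.91, adjusted p = 1.59e-07) led the rises, and the epidermal factor gene lin-26 (-0.57, adjusted p = 0.000995) and grd-3 (-0.71, adjusted p = 0.0168) fell. With skn-1 RNAi wrt-2 fell by 1.48 (adjusted p = 1.68e-06) and mlt-11 by 1.10 (adjusted p = 0.00164), both on the log2 scale. The 2 that rose were grd-3 (0.85, adjusted p = 0.00774) and lin-26 (0.52, adjusted p = 0.00272). Between skn-1 RNAi mutants and N2, 5 of the 24 markers were called higher and 0 lower, where 6.34% of all probe sets were called. The median of the markers was 0.20 there, and that of the 6 tested bus genes was -0.12. The summed signal of the 24 markers was 27650 to 33220 in N2 and 34210 to 35530 in the wdr-23 control arrays. With skn-1 RNAi it was 30560 to 36850, and 0 markers were under 19 on all arrays. The gene sqt-3 alone gave 14440 to 20120 in N2, 12870 to 17310 in mutant control and 16000 to 20940 in skn-1 RNAi arrays. Its log2 change against N2 was -0.24 (limma adjusted p = 0.172). The sums therefore weigh sqt-3 heavily and do not show the typical marker. The list mixes moulting and cuticle genes with other epidermal genes. Not called against N2 were elt-1 (0.31), grd-10 (0.04) and vha-5 (0.24), nor were the moulting genes mlt-10 (-0.05) and nas-36 (-0.14). The median thus does not stand for the amount of epidermis. Whether the groups differed in stage or moult was not tested. The part of these markers in the bus results was not tested either.

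In the list of rectal epithelium and hindgut, the site of bus-1, 3 of 7 tested genes rose against N2 (17.4% of all probe sets) and 4 fell with skn-1 RNAi (12.6% of all), led by lpr-1 (1.29, limma adjusted p = 2.85e-05, and -0.77, adjusted p = 0.00393). The summed signal of its 10 genes was 1462 to 1656 in N2, 1638 to 1881 in the wdr-23 control arrays and 1242 to 1435 with skn-1 RNAi. One of the genes called in both comparisons, che-14 (0.97, limma adjusted p = 0.000964, and -0.69, adjusted p = 0.0136), is also counted in the epidermis list. The genes egl-5, mab-9 and pax-2 were too dim to test. Neuron markers were higher in 5 of 8 tested cases against N2, with summed signals of 5412 to 5860 in N2, 6561 to 7386 in the wdr-23 control arrays and 5394 to 5730 with skn-1 RNAi. With skn-1 RNAi 3 of the 8 neuron markers fell. Intestine markers rose in 3 and fell in 2 of 10 cases against N2, and rose in 2 and fell in 5 with skn-1 RNAi. Of 8 body-wall muscle markers 2 rose against N2 and 1 fell with skn-1 RNAi. Germ line, sperm and oocyte markers rose in 2 and fell in 4 of 12 cases against N2, and rose in 4 and fell in 1 with skn-1 RNAi. The shares of all probe sets to read these counts against are those given for the epidermis. The part of these tissues in the bus results was not tested either.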

How the data were processed

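The deposited table holds one intensity value per probe set and array. Per the submitters' processing notes these are MAS5 signals, with no version. Over all 22625 probe sets each array's mean, trimmed by 2% at each end, was 500.1, so the arrays had been scaled by the authors to one level. The genome build and the detection calls were not used here. After leaving out 77 control probe sets, signals were taken to log2 with a pseudocount of 19 (the 20th percentile, rounded). Probe sets in the lowest 30% by mean log2 value were dropped, and 15783 were tested with limma 3.58.1 in R 4.3.3 (lmFit, eBayes with an intensity trend, two-sided, 3 groups in one fit, 16.4 degrees of freedom, Benjamini-Hochberg over all tested). Intervals are 95% intervals of the fit. The fit was tested on simulated data. Other steps used python 3.11.15, numpy 2.4.6 and pandas 2.3.3.

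Gene names came from GEO's platform annotation, in which 20766 probe sets have 1 gene, 887 several and 895 none. The bus-8B entry was taken as bus-8 by its gene number. The labels call the arrays biological replicates. Named genes were all bus genes on the array and the 2 closest in pattern to each tested member. Up to 2 called rises and falls per comparison were also named for the related gene lists, the epidermis and the hindgut. For skn-1 RNAi mutants against N2 this was done only in part. Called genes of the intestine, muscle, neuron and germ line lists were counted and not named. The genes srf-3, agmo-1, sqt-3, pax-2, elt-1, grd-10, vha-5, mlt-10 and nas-36 were named after their values were seen. The members and lists were chosen with earlier results of these data known. The alternatives were other pseudocounts, filters, scalings, variance models, probe sets, a replicate block and leaving out each array. The number of arrays limits the precision.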

Additional observations from a re-analysis of the deposited data

How the results depend on the processing

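For mutant against N2, 5 bus genes were called, and 3 were with the lowest 50% of probe sets left out (which leaves 3 of the 8 genes tested), after quantile normalization, with median centring and with the replicate block. Leaving out single arrays gave 3 to 5, lowest without N2 replicate 3. The replicate block gave log2 changes there of 0.51 for bus-12 (adjusted p = 0.0613) and 0.40 for bus-19 (adjusted p = 0.13). With skn-1 RNAi it gave -0.56 for bus-12 (adjusted p = 0.0508), and it changed the call of no other member. Only 1 array, wdr-23 control replicate 4, carries the number 4, so the block gave it no weight. The log2 changes of the tested members were therefore the same as without that array. The replicate numbers were not shown to pair the arrays: residuals of same-numbered arrays correlated at -0.16 to 0.18, and N2 replicate 2 correlated best with an array of another number (0.07). With skn-1 RNAi 4 were called and 2 to 5 without single arrays, lowest without wdr-23 skn-1 RNAi replicate 1. The comparison of skn-1 RNAi mutants and N2 gave 0 under every alternative, single arrays left out included. With bus-8B left out, an alternative chosen after seeing the data like the dimmer probe set of bus-8B, the counts were 4, 3 and 0.

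Over all probe sets 4344, 3558 and 1001 were called in the 3 comparisons, and 2724, 2101 and 599 without suffixed probe sets, where 9973 were tested. Leaving out single arrays gave 2848 to 4125, 2216 to 3533 and 521 to 1043, lowest without N2 replicate 1, wdr-23 skn-1 RNAi replicate 1 and wdr-23 skn-1 RNAi replicate 3. Of the calls against N2 63.4% were higher, 49.8% after quantile normalization and 26.6% with median centring; with skn-1 RNAi the shares were 44.3%, 51.5% and 72.6%. The cause of these shifts was not tested. Dim signals limit bus-1 and bus-2, whose group means were 10.3 to 40.2.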
